A study of Mus musculus with 3 samples.

Results

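Cytoplasmic ribosomal protein genes encode the proteins of the ribosome outside mitochondria, and they were followed here in mouse embryonic stem cells (ESCs), in libraries labelled for deletion of the Oct4 distal enhancer. Members were taken by gene symbol, as Rpl or Rps genes with their numbered or lettered suffix, leaving out the S6 kinase genes. The rule found 82 gene rows among the 23953 rows of the gene tables, with 7 more pseudogene rows (-ps in the symbol) set apart. Of the 82, 75 were canonical genes, 45 of the large subunit (Rpl) and 30 of the small subunit (Rps), and 7 were paralogs (Rpl3l, Rpl7l1, Rpl10l, Rpl22l1, Rpl39l, Rps4l and Rps27l). Another 2 rows that join a gene with its copy in 1 name, Rpl34 with Rpl34-ps1 and Rps27 with Rps27rt, fell outside the rule and are described apart. Ribosomal proteins with unrelated symbols (such as Fau, Rpl36al and Gnb2l1) were followed as a list of their own.

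The study asked which genes depend on the Oct4 distal enhancer, and it measured RNA in 3 libraries of E14 mouse ESCs, an established pluripotent line grown here in serum with LIF. The library labelled WT is the reference, and the labels give all 3 samples the same doxycycline- and tamoxifen-inducible constructs without saying whether the WT cells are the parental line or untreated floxed cells. The library labelled Tam came from Oct4 DE (−/−) cells, a clonal line with loxP sites around the CR4 part of the enhancer and a CreERT2 recombinase, treated with 4-OH tamoxifen for 48 hours. The library labelled DoxTam came from such cells given doxycycline as well over the same time, which induces a mouse Oct4 transgene. Each condition had 1 library, so no difference below has a replicate check, no test was made, and p-values and errors between replicates cannot be given. Levels are FPKM, fragments scaled to transcript length and library size, and a fold is the log2 of the ratio of 2 levels with 1 FPKM added to each. Members are called higher or lower at 1.5-fold, among rows that reach 1 FPKM in either library compared.

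Pou5f1, which encodes OCT4, was at 664 FPKM in WT, 529 in Tam and 458 in DoxTam, so it stayed high in the library labelled as deleted and was lowest where the transgene was induced, against the labels. The libraries are therefore named by their labels. All 5 ESC markers (Pou5f1, Nanog, Sox2, Zfp42 and Esrrb) were at 99.0 FPKM or more in every library. The 4 fibroblast markers were at 4.52 FPKM or less, the 3 trophectoderm markers at 5.43 FPKM or less and the 3 primitive endoderm markers at 1.31 FPKM or less. Depth is not stated in the tables, and the smallest steps in the levels of olfactory receptor genes put 1 fragment on a transcript of 1 kb at about 0.0843 FPKM in WT, 0.183 FPKM in Tam and 0.151 FPKM in DoxTam, so that Tam had an estimated 0.461 and DoxTam 0.558 of the depth of WT. In bulk RNA, more ribosomal protein mRNA per cell and more cells that are rich in it cannot be told apart.

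Ribosomal proteins assemble with ribosomal RNA in the nucleolus, in equal numbers for nearly every protein, and pluripotent cells that divide fast make many ribosomes. Their mRNAs are known for a 5′ terminal oligopyrimidine (TOP) tract, a C at the start followed by an unbroken run of C and T (U in the RNA), through which mTORC1 and LARP1 control their translation. Many copies of these mRNAs have been inserted in the genome as processed pseudogenes, and many of their introns host small nucleolar RNAs (snoRNAs), which guide the modification of ribosomal RNA.

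The RefSeq promoter table (GRCm38.p6, 250 bases before to 50 after each annotated start) held 61 of the 82 members with 72 starts. A pyrimidine run of at least 6 bases reached to within 10 bases of 36 of the 72 starts (50%), compared with 29.97% of all 32851 promoters in the table and 32.4% of the 74 starts of mitochondrial ribosomal protein genes. The letters CTTTCC on the transcribed strand within that distance were found at 12.5% of member starts and 1.09% of all promoters, and CTTTTC at 4.17% and 0.868%. A start base C followed directly by 4 or more pyrimidines, a feature added after the sequences were seen, was found at 12 of the 72 starts (16.7%), at 2.51% of all promoters and at none of the 74 mitochondrial ribosomal protein starts. This feature depends on the exact annotated base. At Rpl12 and Rpl18, for example, runs of 7 and 10 bases begin 1 base after it and are not counted. Whether transcripts begin at the annotated base was not tested. The sequences below, 40 bases before the annotated start and the first 20 bases from it, show both kinds of start, with the longest pyrimidine run near the start in capitals. Rplp2, Rpl35, Rpl15 and Rps6 hold a C at the start base followed by such a run, Rpl27a and Rpl39l hold a run of at least 6 bases without it, and Rpl10l and Rpl26 hold neither.
Rplp2 (chr7:141447611-141447670, + strand): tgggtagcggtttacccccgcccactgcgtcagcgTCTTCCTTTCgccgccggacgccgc
Rpl35 (chr2:39005112-39005171, − strand): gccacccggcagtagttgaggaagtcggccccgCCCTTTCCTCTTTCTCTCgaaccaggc
Rpl15 (chr14:18270967-18271026, − strand): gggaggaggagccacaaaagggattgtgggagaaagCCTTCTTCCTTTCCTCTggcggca
Rpl27a (chr7:109519155-109519214, + strand): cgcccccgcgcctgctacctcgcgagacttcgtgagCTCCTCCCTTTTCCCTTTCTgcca
Rps6 (chr4:86857348-86857407, − strand): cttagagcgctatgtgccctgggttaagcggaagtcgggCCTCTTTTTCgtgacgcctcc
Rpl39l (chr16:10170188-10170247, + strand): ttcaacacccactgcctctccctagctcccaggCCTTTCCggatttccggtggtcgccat
Rpl10l (chr12:66284382-66284441, − strand): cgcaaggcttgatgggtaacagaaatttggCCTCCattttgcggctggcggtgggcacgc
Rpl26 (chr11:68901526-68901585, + strand): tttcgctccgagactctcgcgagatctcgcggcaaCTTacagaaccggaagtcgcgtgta

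The longest runs among these were 20 bases at Rpl27a, 18 at Rpl35 and 17 at Rpl15, and Rpl26 and the paralog Rpl10l had runs of 3 and 5 bases. In the 300 bases searched on both strands, the letters CCGGAA, the core that ETS factors recognise, were found at 47.2% of member starts and 14.9% of all promoters. AAGATGG, a YY1-type core, was found at 15.3% and 6.34%, and GGGCGG, an Sp1-type GC box, at 59.7% and 35.7%. TATAAA was found at 9.72% of member starts and 13.6% of all promoters. At the mitochondrial ribosomal protein starts CCGGAA was found at 56.8%, and CTTTCC and CTTTTC near the start at 1.35% each. The 36 members with a pyrimidine run at some start had a median level of 553 FPKM in WT and the 25 without one a median of 270 FPKM. Their median log2 folds lay close together, at 0.09 and 0.07 in Tam against WT and at 0.02 and 0.01 in DoxTam against WT.

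Ribosomal protein mRNAs were among the highest rows of every library. With small RNA genes left out, members made up 47 of the 100 highest rows in WT, 48 in Tam and 49 in DoxTam, and 11, 12 and 12 of the 20 highest. Their summed FPKM was 15.2% of the total without small RNA genes in WT, 16.1% in Tam and 15.8% in DoxTam. Counted against all rows it was 5.58%, 6.59% and 7.43%, where small RNA genes held 63.4%, 59.2% and 53.1% of the summed FPKM. The order of the members was kept across libraries, with a Spearman correlation of levels of 0.97 between WT and Tam, 0.96 between WT and DoxTam and 0.99 between Tam and DoxTam over the 80 members at 1 FPKM or more in WT, which is a description over genes that share each library.

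Levels differed widely between the genes. Rplp1 and Rplp2, which head the order, encode stalk proteins that a ribosome holds in more than a single copy. The 8 canonical genes with the highest level in WT were Rplp2 (3612 FPKM), Rplp1 (2674 FPKM), Rpl4 (2458 FPKM), Rps20 (2031 FPKM), Rps24 (2031 FPKM), Rps15 (1954 FPKM), Rps12 (1815 FPKM) and Rps21 (1806 FPKM). The 8 lowest were Rpl26 (0.0046 FPKM), Rpl29 (28.1 FPKM), Rps15a (57.0 FPKM), Rpl27 (82.0 FPKM), Rpl15 (87.8 FPKM), Rpl30 (187 FPKM), Rpl10 (218 FPKM) and Rpl31 (219 FPKM). Rpl15 and Rpl27a, which both hold long pyrimidine runs, stood far apart in level, at 87.8 and 395 FPKM. The median canonical level was 551 FPKM in WT, 625 in Tam and 639 in DoxTam. Over the 74 canonical genes without Rpl26, the SD of the log2 FPKM was 1.29 in WT, 1.23 in Tam and 1.22 in DoxTam, and the highest gene stood 129-fold above the lowest in WT.

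**Figure D1:**
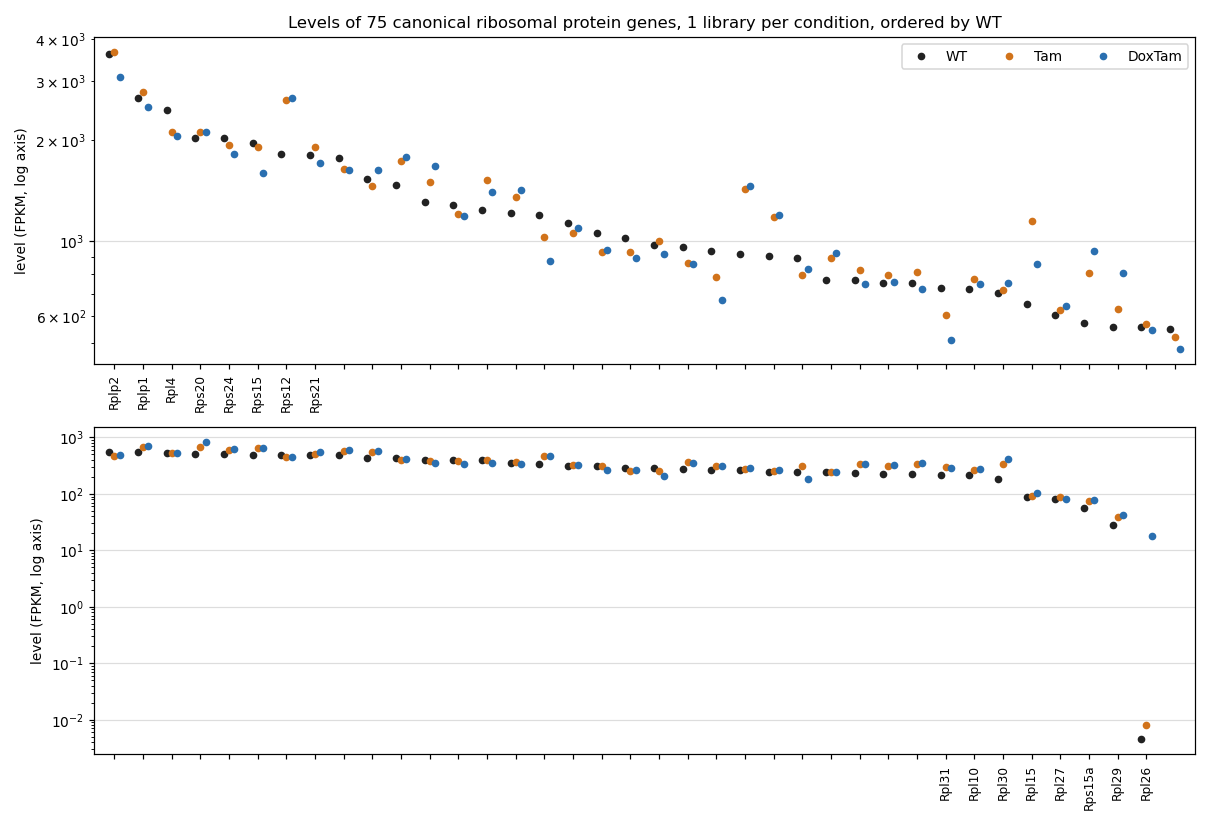
Levels of the 75 canonical ribosomal protein genes (y axis, FPKM on a log axis; x axis, genes ordered by their level in WT, from Rplp2 to Rpl26, with the 8 highest and 8 lowest named), with a point for each library (WT black, Tam orange, DoxTam blue). The 3 points of a gene lie close to each other for nearly all genes, and Rpl26, at 0.0046 FPKM in WT and 17.8 FPKM in DoxTam, stands apart.

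Many members have copies of their coding sequence elsewhere in the genome. In the genome build of the tables (mm9, NCBIM37), 25 of the 80 members with a coding sequence at their locus had an exact copy elsewhere of every 50-base window, 40 more had a copy of over 50% of windows and 15 of at most 50%. Among canonical genes the median level in WT was 1093 FPKM for the 10 with at most 50% of windows copied, 550 FPKM for the 39 with more but not all windows copied and 426 FPKM for the 25 with all windows copied. The 10 genes lay between 240 and 2458 FPKM. They include Rps3 (8.05%, 489 FPKM), Rpl8 (8.83%, 1770 FPKM) and Rpl4 (20.2%, 2458 FPKM), and none of the 5 lowest canonical genes, of which Rps15a (84.3%) had the smallest copied share. Over all 78 members at 1 FPKM or more in WT with a value, paralogs included, the Spearman correlation of copied share and level was -0.14. Fragments that align to several places can be divided or lost, and how much of the order of levels is due to this was not tested.

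**Figure D2:**
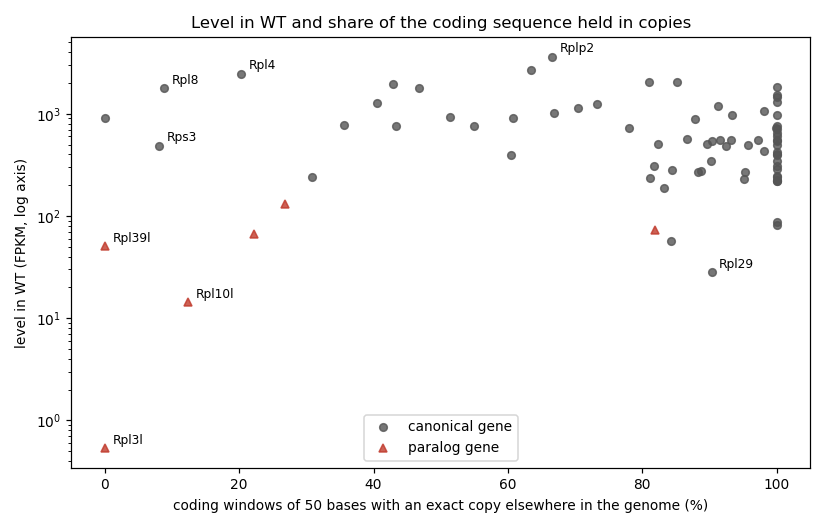
Level in WT (y axis, FPKM on a log axis) against the share of 50-base coding windows with an exact copy elsewhere in the genome (x axis, %), for members at 0.1 FPKM or more in WT, with canonical genes as grey circles and paralogs as red triangles. The 10 canonical genes at 50% or less lie between 240 and 2458 FPKM, while the canonical genes at 28.1 to 87.8 FPKM have at least 84.3% of windows copied.

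In Tam against WT, 6 of 81 members tested were higher by 1.5-fold and none was lower, beside 6.98% of all 12705 rows higher and 3.59% lower. In DoxTam against WT, 7 of 81 were higher and none was lower, beside 4.12% of all 12384 rows higher and 5.78% lower. In DoxTam against Tam, 1 of 82 was higher and 4 were lower, beside 2.09% of all 12647 rows higher and 5.74% lower. Read as shares, the members higher in Tam were near the background of all rows, and both comparisons with WT held no lower member. The median log2 fold of the members was 0.08 in Tam against WT (0.02 over all rows), 0.04 in DoxTam against WT (-0.003 over all rows) and -0.003 in DoxTam against Tam (-0.02 over all rows). Without members that have over 50% of coding windows copied elsewhere, the median in DoxTam against WT was -0.04 over 16 members and none of them was higher, and without members that share their interval it was -0.01 over 49 members. Of the members tested, 55 were above 0 in Tam and 43 in DoxTam. Of these, 41 were above 0 in both, where both comparisons share the WT library and no share of all rows is given. Over all rows 52.7% were above 0 in Tam and 49.7% in DoxTam, beside 67.9% and 53.1% of the members, so the share in DoxTam was near that of all rows.

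Small and large subunits had like medians. The 45 canonical large-subunit genes had a median log2 fold of 0.04 in Tam and 0.002 in DoxTam, and the 30 small-subunit genes 0.10 and 0.07. Beside them, the 631 rows at 100 FPKM or more in WT, small RNA genes left out and members included, had medians of -0.09 and -0.06, with 19 higher and 29 lower in Tam and 15 higher and 44 lower in DoxTam. The 77 mitochondrial ribosomal protein genes, whose products serve a separate ribosome, had medians of -0.07 and -0.04. The medians of the members (0.08 and 0.04) lay slightly above those of the 631 rows in both comparisons with WT. With 1 library per condition this difference cannot be set against replicate spread. The 631 rows were picked by their WT level, which enters both folds, while the members were picked by symbol. These medians are therefore not like for like. In DoxTam against Tam, where WT does not enter the fold, they were -0.003 for the members and 0.007 for the 631 rows.

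**Figure D3:**
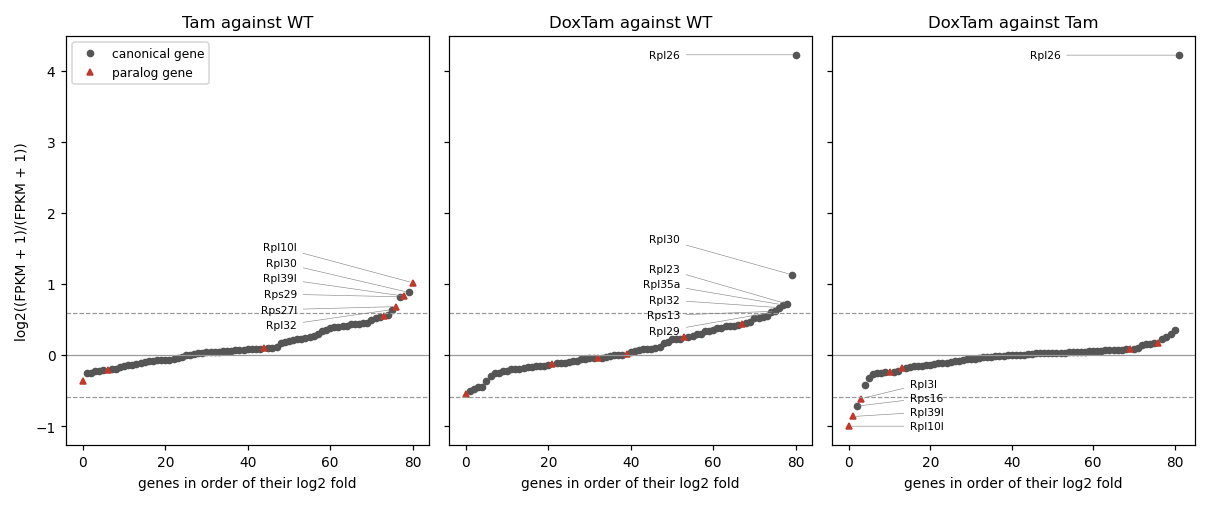
Log2 folds of ribosomal protein genes (y axis, log2 of the ratio of FPKM + 1; x axis, genes in order of their fold) in the 3 comparisons, with canonical genes as grey circles, paralogs as red triangles and dashed lines at 1.5-fold. Named genes pass 1.5-fold, 6 on the left, 7 in the middle and 5 on the right, and most genes lie between the dashed lines.

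The scale of the libraries bears on these counts. Rescaling each library to the same total FPKM moved the median log2 fold of all rows from 0.02 to 0.15 in Tam and from -0.003 to 0.32 in DoxTam, and that of the members from 0.08 to 0.23 and from 0.04 to 0.40. The members higher by 1.5-fold then numbered 13 and 29, beside 11% and 22% of all rows, and in DoxTam against Tam 1 was higher and 2 were lower. With small RNA genes left out of that total the counts against WT were 6 and 7 again, with the same members.

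Members higher in both comparisons with WT numbered 2, Rpl30 and Rpl32. Both comparisons use the same WT library, and no share of all rows higher in both is given beside this count. Rpl30, a large-subunit protein whose mRNA has been studied as a TOP mRNA, was at 187 FPKM in WT, 345 in Tam and 411 in DoxTam (log2 folds of 0.88 and 1.13), above WT in both. Rpl32, another large-subunit protein, was at 919, 1431 and 1459 FPKM (log2 folds of 0.64 and 0.67). Its interval also holds Snora7a, a snoRNA, which was at 512, 1470 and 1342 FPKM and so was high in the same libraries. 60.7% of the coding windows of Rpl32 and 83.3% of those of Rpl30 are copied elsewhere.

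Canonical genes higher in 1 comparison had the same sign in the other wherever both could be computed. Both folds use the same WT value, so the second sign adds no separate support. Rps29, a small zinc-binding protein of the small subunit, was at 650 FPKM in WT, 1146 in Tam and 859 in DoxTam, so Tam stood highest (log2 folds of 0.82 and 0.40). Rpl23 was at 571, 807 and 939 FPKM (0.50 and 0.72), and Rpl35a at 505, 671 and 824 FPKM (0.41 and 0.70), each lowest in WT and highest in DoxTam. Rpl35a is mutated in some cases of Diamond-Blackfan anaemia, an inherited red-cell aplasia. Rps13, a small-subunit protein, was at 227, 335 and 348 FPKM (0.56 and 0.61), and Rpl29, a large-subunit protein also known as a heparin-binding protein, at 28.1, 38.3 and 43.0 FPKM (0.43 and 0.60). All 5 were above WT in both libraries, and whether their folds differ between the comparisons was not tested. After the trend of fold on GC content was removed, Rpl23 lay inside 1.5-fold in DoxTam, and Rpl35 and Rps12 passed it.

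At the other end, the canonical gene with the lowest fold at 5 FPKM or more was Rpsa in both comparisons with WT. Rpsa, which encodes the small-subunit protein uS2, known also as a laminin receptor precursor, was at 725 FPKM in WT, 607 in Tam and 509 in DoxTam (log2 folds of -0.26 and -0.51), lower in order from WT to DoxTam but within 1.5-fold. The highest canonical folds were those of Rpl30 in Tam and, apart from Rpl26, in DoxTam. Against Tam, Rps16, a small-subunit protein, was the 1 canonical gene that was lower by 1.5-fold in DoxTam. Rps16 was at 242 FPKM in WT, 310 in Tam and 188 in DoxTam (log2 fold of -0.72 against Tam), while AF357399, a small RNA row in its interval, was listed at 0 in WT and was at 239 FPKM in Tam and 422 in DoxTam. With each library rescaled to the same total FPKM, the log2 fold of Rps16 was -0.51, inside 1.5-fold. The part of the small RNA row in the level of Rps16 was not tested.

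Rpl26 was the member with the largest fold, and it shares its interval with another row. Rpl26, a protein at the peptide exit of the large subunit, was at 0.0046 FPKM in WT, 0.0081 in Tam and 17.8 in DoxTam (log2 fold of 4.22 with 1 FPKM added, a value set by that addition). Gm15772, an unnamed gene model with the same interval (mm9 chr11:68715067-68718036), was at 682, 823 and 859 FPKM. The sum of both was 682, 823 and 877 FPKM, a log2 fold of 0.27 in Tam and 0.36 in DoxTam, within 1.5-fold. Each row is scaled to its own transcript length, so a sum is a description only, and how fragments were assigned between the rows was not tested.

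The joint rows also share their intervals with another row. The row of Rps27 with Rps27rt was at 325 FPKM in WT, 853 in Tam and 1038 in DoxTam, and the row of Rps27rt alone, with the same interval (mm9 chr3:90016588-90017570), at 1046, 851 and 585 FPKM, so one was high where the other was low. Their sum was 1370, 1703 and 1623 FPKM (log2 folds of 0.31 and 0.24). The row of Rpl34 with Rpl34-ps1 was at 22.9, 14.0 and 6.65 FPKM and the row of Rpl34-ps1, with the same interval (mm9 chr3:130429744-130433316), at 130, 127 and 129 FPKM. Their sum of 152, 141 and 136 FPKM gave log2 folds of -0.11 and -0.16. For both, the sum differed between libraries by a smaller ratio than the joint row did.

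**Figure D4:**
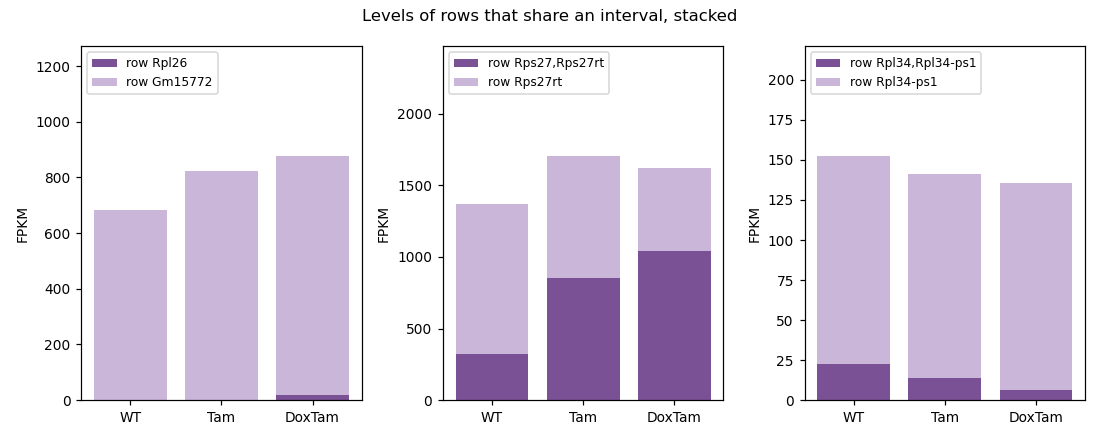
Levels (y axis, FPKM, from 0) of rows that share an interval, stacked, in each library (x axis), for Rpl26 with Gm15772, the joint Rps27 row with Rps27rt, and the joint Rpl34 row with Rpl34-ps1. For the joint Rps27 row the dark part is at 325 FPKM in WT, 853 in Tam and 1038 in DoxTam, while the stack is at 1370, 1703 and 1623 FPKM. For Rpl26 the dark part reaches 17.8 FPKM in DoxTam, in a stack of 877 FPKM.

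Other rows lay in the interval of 32 of the 82 members, and a small RNA row in that of 24. The median log2 fold of the 32 was 0.18 in Tam and 0.21 in DoxTam, and that of the 50 without another row was 0.06 and -0.01. Snord100, in an intron of Rps12, was at 45933 FPKM in WT and was listed at 0 in Tam and DoxTam, and Rps12, named here after its values were seen, was at 1815, 2623 and 2667 FPKM (log2 folds of 0.53 and 0.56). The host gene was thus higher where its snoRNA was listed at 0. snoRNAs are shorter than the fragments of such libraries, and the part of these rows in the host's level was not tested.

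The P stalk, which recruits the elongation factors to the ribosome, is built from Rplp0, Rplp1 and Rplp2. Rplp0 was at 396 FPKM in WT, 378 in Tam and 333 in DoxTam (log2 folds of -0.07 and -0.25). Rplp1 was at 2674, 2786 and 2504 FPKM (0.06 and -0.09), and Rplp2 at 3612, 3651 and 3083 FPKM (0.02 and -0.23). All 3 were lowest in DoxTam, and none passed 1.5-fold.

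Rpl5 and Rpl11 form the 5S particle with 5S ribosomal RNA, which binds MDM2 when assembly fails. Rpl5 was at 246, 251 and 266 FPKM (log2 folds of 0.03 and 0.11) and Rpl11 at 556, 570 and 547 FPKM (0.04 and -0.02), so both lay close to WT. Of the proteins that line the peptide exit tunnel or its rim (Rpl4, Rpl17, Rpl19, Rpl22, Rpl23a, Rpl26, Rpl31, Rpl35 and Rpl39), 7 of 8 tested were above 0 in Tam and 7 of 9 in DoxTam, with medians of 0.19 and 0.36, beside 52.7% and 49.7% of all rows above 0. Only Rpl26, counted in DoxTam, passed 1.5-fold, and its fold is set by the added 1 FPKM, as described above. Rpl35 was at 556, 630 and 806.5 FPKM (0.18 and 0.54), Rpl31 at 219, 300.5 and 291 FPKM (0.45 and 0.41), and Rpl4, the most abundant of them, at 2458, 2107 and 2059 FPKM (-0.22 and -0.26). Rpl22, which can be replaced by its paralog Rpl22l1, was at 240, 241 and 240 FPKM.

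The proteins of the mRNA channel and decoding centre were close to WT in both libraries. Rps2 was at 725 FPKM in WT, 773 in Tam and 745 in DoxTam, Rps3 at 489, 515 and 550 FPKM, and Rps23 at 488, 583 and 596 FPKM, all above WT with log2 folds of at most 0.29. Rps6, the protein that S6 kinases phosphorylate below mTORC1, was at 426, 404 and 422 FPKM (log2 folds of -0.08 and -0.01). Rps27a, made as a fusion with ubiquitin, was at 607, 625 and 645 FPKM (0.04 and 0.09).

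Among 9 genes mutated in Diamond-Blackfan anaemia, 7 were above 0 in Tam and 5 in DoxTam (52.7% and 49.7% of all rows), with medians of 0.11 in both, and Rpl35a was the 1 gene that passed 1.5-fold. Rps19, the gene most often mutated, was at 751 FPKM in WT, 811 in Tam and 722 in DoxTam (log2 folds of 0.11 and -0.06). Rps10 was at 282, 258 and 205 FPKM (-0.13 and -0.46) and Rps26 at 1243, 1525 and 1406 FPKM (0.29 and 0.18), while Rps7 (0.23 and 0.22) and Rps24 (-0.07 and -0.16) stayed closer to WT. Genes of 1 disease list thus lay on both sides of 0.

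The paralogs Rpl10l and Rpl39l had among the largest folds in Tam. Rpl10l, an intronless autosomal copy of X-linked Rpl10 used in male meiosis, was at 14.3 FPKM in WT, 29.99 in Tam and 14.5 in DoxTam (log2 folds of 1.02 and 0.02 against WT and -1.001 in DoxTam against Tam). Rpl39l, a paralog of Rpl39 best known from testis, was at 50.5, 90.3 and 49.1 FPKM (0.83, -0.04 and -0.87). Both were high in Tam and at the WT level in DoxTam. The estimated fragments behind these levels were 173, 167 and 98 for Rpl10l and 329, 272 and 179 for Rpl39l. Their parent genes stayed within 1.5-fold of WT, with Rpl10 at 218, 264 and 276 FPKM (0.27 and 0.34) and Rpl39 at 276, 372 and 349 FPKM (0.43 and 0.34). The fold of Rpl39 in Tam was above the upper quartile of the members (0.38). Few coding windows of Rpl10l (12.4%) and none of Rpl39l are copied elsewhere.

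Rpl3l, the striated-muscle paralog of Rpl3, was at 0.54 FPKM in WT, 1.24 in Tam and 0.46 in DoxTam, on an estimated 9, 9 and 4 fragments, and passed 1.5-fold only in DoxTam against Tam (-0.61), while Rpl3 was at 491, 443 and 445 FPKM. Rps27l, a paralog of Rps27 known as a p53 target, was at 130, 209 and 177 FPKM (0.68 and 0.44), and it lay inside 1.5-fold in Tam once the GC trend was removed. Rpl22l1 was at 73.1, 77.9 and 87.5 FPKM (0.09 and 0.26). Rpl7l1 was at 67.3, 57.9 and 61.4 FPKM (-0.21 and -0.13), beside Rpl7 at 1024, 928 and 891 FPKM. Rps4l, with 298, 231 and 203 FPKM, had the lowest fold of all members in both comparisons (-0.37 and -0.55), while its X-linked relative Rps4x was at 344, 466 and 472 FPKM (0.44 and 0.45). Rps4l and Rps4x thus lay on opposite sides of WT in both treated libraries. The interval of Rps4l overlaps other rows, of which Ergic2 was the highest (27.9, 27.5 and 30.6 FPKM). Rps4l has no value of copied windows or GC content, and 90.3% of the coding windows of Rps4x are copied elsewhere. The part of either in these levels was not tested.

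Olfactory receptor genes, which ESCs are not known to use, moved with Tam as Rpl10l, Rpl39l and Rpl3l did. Of 1117 such rows 380 were above 0 in WT, 790 in Tam and 190 in DoxTam, and their summed level was 80.2, 319 and 68.8 FPKM. The median olfactory receptor row was at 0.194 FPKM in Tam and at 0 in the other libraries, a level that is small beside Rpl10l and Rpl39l and not small beside Rpl3l. Cdx2, a trophectoderm marker, was also highest in Tam, at 0.64, 2.82 and 0.13 FPKM, and the part of either in the levels of the paralogs was not tested.

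**Figure D5:**
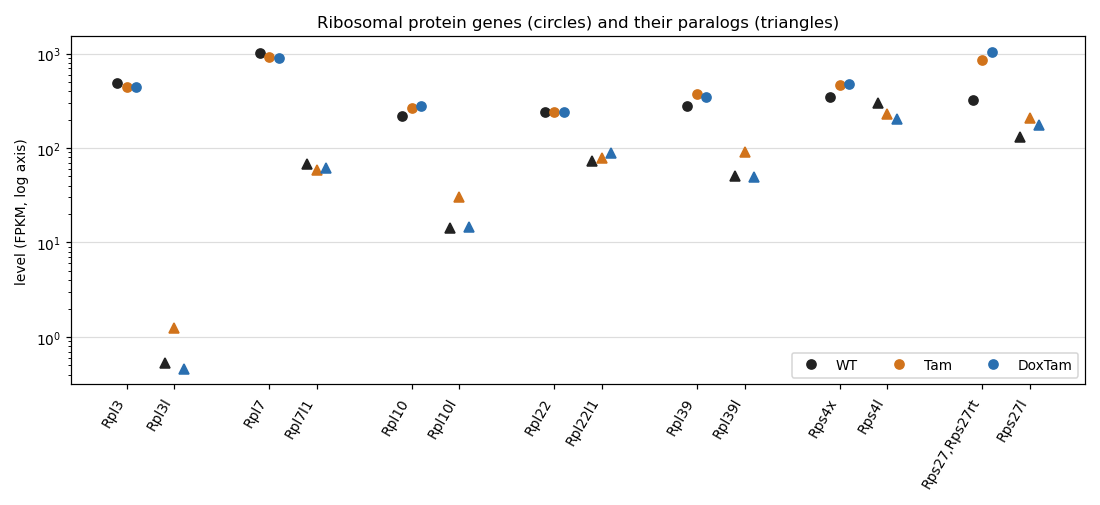
Levels (y axis, FPKM on a log axis) of 7 ribosomal protein genes (circles) and their paralogs (triangles) in each library (WT black, Tam orange, DoxTam blue), where Rps27 is the joint row with Rps27rt. Rpl10l, Rpl39l and Rpl3l are higher in Tam than in both other libraries, and Rps4l is lowest in DoxTam while Rps4x is lowest in WT.

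The pseudogene rows were low apart from Rpl34-ps1, described above. Rpl14-ps1 was at 23.4 FPKM in WT, 19.1 in Tam and 18.4 in DoxTam, Rplp2-ps1 at 13.4, 13.8 and 14.6 FPKM, and Rps15a-ps6 at 3.78, 2.23 and 4.16 FPKM (log2 fold of 0.68 in DoxTam against Tam). Rps19-ps3, at 1.81, 1.57 and 5.68 FPKM, was the 1 pseudogene row past 1.5-fold against WT (1.25 in DoxTam). Together the 7 rows held 0.0446% of the summed FPKM without small RNA genes in WT, a share of levels scaled to length and not of fragments. Of their 173 FPKM in WT, 130 were in Rpl34-ps1, whose interval is that of the joint Rpl34 row.

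Ribosomal proteins with other symbols lay close to WT. Fau was at 468, 489 and 436 FPKM, Rpl36al at 57.6, 62.0 and 66.5 FPKM and Gnb2l1, which encodes the scaffold RACK1, at 927, 1110 and 1057 FPKM. All 4 genes of the list were above 0 in Tam and 3 in DoxTam, with medians of 0.13 and 0.15 and none past 1.5-fold. The other TOP mRNAs, 18 genes such as elongation factors, had medians of 0.01 and 0.06. Of these, 2 were higher in DoxTam, Snhg1 (73.3, 99.8 and 131 FPKM, log2 fold of 0.83) and Gas5 (62.7, 85.4 and 101 FPKM, 0.67), both noncoding snoRNA hosts whose transcripts begin with a TOP tract.

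Genes that build ribosomes had medians below 0 in both comparisons with WT. Of 31 ribosome biogenesis genes 26 were below 0 in Tam and 19 in DoxTam, beside 52.7% and 49.7% of all rows above 0. Their medians were -0.22 and -0.11. After rescaling to the same total these became -0.08 and 0.24, below the 0.15 and 0.32 of all rows at that scale. With small RNA genes left out of that total they were -0.23 and -0.11. None passed 1.5-fold in Tam, and 2 were lower in DoxTam, Rrs1, an assembly factor of the 5S particle (77.2, 52.7 and 48.1 FPKM, -0.67), and Fbl, the methyltransferase guided by box C/D snoRNAs (60.1, 47.2 and 39.2 FPKM, -0.60), beside 5.78% of all rows. Both calls were lost with the GC trend removed (-0.55 and -0.39) and with the same total (-0.32 and -0.25). Among 12 genes of mTORC1 and LARP1 control the medians were -0.06 and -0.02, and Larp1, whose product binds TOP mRNAs, was the 1 gene past 1.5-fold, at 93.7, 62.0 and 69.5 FPKM (-0.59 in Tam), just past the limit. It lay inside the limit with the GC trend removed (-0.55) and with the same total (-0.44). Of the mitochondrial ribosomal protein genes 1 was lower in Tam, Mrps26 (56.8, 36.0 and 30.7 FPKM), and in DoxTam 2 were higher, Mrpl22 (0.71) and Mrps33 (0.93), and 2 lower, Mrps26 (-0.87) and Mrpl12 (-0.78), out of 77 and at no more than the 4.12% and 5.78% of all rows. With the same total Mrps26 lay inside 1.5-fold in Tam (-0.50) and DoxTam (-0.52), but with the GC trend removed it stayed past it (-0.69 and -0.93). Mrpl12 lay inside 1.5-fold in DoxTam with the same total (-0.42) and with the GC trend removed (-0.58).

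GC content moved with the folds. Over the members the Spearman correlation of transcript GC content and fold was -0.26 in Tam and -0.31 in DoxTam (79 members), and over all rows -0.39 (11285 rows) and -0.61 (11041 rows), as descriptions over genes of the same libraries. With the trend removed the median of the members was 0.13 in Tam and 0.14 in DoxTam, and 6 and 8 members were higher, 5 and 6 of them also called without the correction. The members' folds were also lower where the WT level was higher, with a Spearman correlation of -0.38 in Tam and -0.31 in DoxTam over 81 members, where the WT level enters both quantities.

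Ribosomal protein genes were spread over 19 chromosomes, with 14 members on chromosome 7 and 8 on chromosome 17, which also holds Pou5f1. Rps2 and Rpl3l lay 5900 bp apart on chromosome 17 (mm9). Of the 4 members on chromosome X (Rpl10, Rpl36a, Rpl39 and Rps4x), 3 were above 0 in both comparisons, with medians of 0.35 and 0.34, and Rpl36a was below 0 in both.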

How the data were processed

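Stranded RNA libraries (TruSeq) of 3 conditions of E14 mouse ESCs were compared, 1 library each, grouped by the submitters' titles. The authors deposited 2 gene tables, Tam with WT and DoxTam with WT, whose levels are FPKM values made with Cufflinks 2.0.0 after TopHat and Bowtie alignment to mm9, by the submitters' processing notes. How fragments were assigned between overlapping rows and repeated alignments can affect the level of ribosomal protein rows, and was not tested. The tables also hold the authors' own log2 fold, test statistic, p-value, q-value, status and significance columns, which were not used. WT levels of the 89 rows of the rule differed by under 1% between the tables.

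Folds are log2((FPKM + 1)/(FPKM + 1)) at a limit of 1.5-fold for rows at 1 FPKM or more in at least 1 library, with no test, since 1 library per condition allows none. The members, the lists, the rule for named genes and the alternatives were chosen with earlier results of these data known. Named genes were the 8 highest and 8 lowest canonical genes in WT, members past 1.5-fold, paralog pairs, role groups, at most 2 genes each way of other lists, the 4 highest pseudogene rows and those past 1.5-fold, and the lowest and highest fold of canonical genes at 5 FPKM or more. Lists held the symbols as written, of which Rack1 (tabled as Gnb2l1) and Noc2l were not found. Coding sequences and GC content came from GENCODE vM1 transcripts at each row's locus, copied 50-base windows from an exact search of NCBIM37 on both strands, and promoters from the RefSeq table of GRCm38.p6, used for sequence only. Folds were freed of their trend on GC content by lowess (span 0.2, statsmodels 0.14.6). Depth was estimated as the inverse of the smallest step of olfactory receptor levels per kilobase, which is approximate, and it covers counting error only. Steps were tested on simulated data. Alternatives were pseudocounts of 0.1 and 5 FPKM, no filter or one at 5 FPKM, rescaling to the same total with and without small RNA genes, centring, GC removal, a limit of 2-fold, other sets of members and, chosen after seeing the data, leaving out members with copies or shared intervals and counting the joint rows. Results for some genes are not reported here.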

Additional observations from a re-analysis of the deposited data

Results flagged for a closer look

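The joint rows were left out of the comparisons by the rule on symbols and held some of the largest folds of any ribosomal protein row. The joint row of Rps27 and Rps27rt had a log2 fold of 1.39 in Tam and 1.67 in DoxTam against WT. The joint row of Rpl34 and Rpl34-ps1 had a log2 fold of -0.67 in Tam and -1.64 in DoxTam. For both, the sum with the other row of the same interval was within 1.5-fold.

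Rpl39l was above WT in Tam, with a log2 fold of 0.83, and at about the WT level in DoxTam, with a log2 fold of -0.038. It is listed for the sign of these values, and the difference between them was not tested.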

How the results depend on the processing

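No paired analysis was possible because each condition has 1 library and the values come from no test. Of all the counts, medians and shares recomputed, those that moved were the following. With every library rescaled to the same total, higher members numbered 13 (Tam) and 29 (DoxTam) against WT, lower members numbered 2 in DoxTam against Tam, and the medians were 0.23, 0.40 and 0.21. With the GC trend taken out, DoxTam against WT had a median of 0.14. With canonical genes only, 3 were higher in Tam and 1 was lower in DoxTam against Tam. At 2-fold, 1 was higher in Tam, 2 in DoxTam and 1 lower in DoxTam against Tam. Without members that have over 50% of windows copied, 3 of 17 (all paralogs) were higher in Tam, 0 of 16 in DoxTam and 0 of 17 in DoxTam against Tam. Without members that share their interval, 3 of 49 were higher in DoxTam and 0 of 50 in DoxTam against Tam. The median in DoxTam against WT turned to -0.04 and -0.01 under these settings. With the joint rows, 1 was lower in Tam and 1 in DoxTam. With the pseudogene rows, 3 were higher in DoxTam against Tam. Without small RNA genes in the total, the shares of summed FPKM were 15.2%, 16.1% and 15.8%. The cause of these moves was not tested beyond what each setting removes. Every other setting left counts within 1.5 times, medians within 0.1 and shares within 1.1 times of the values given. Among called genes, Rpl3l in DoxTam against Tam was lost at a pseudocount or filter of 5 FPKM and Rpl29 in DoxTam against WT at a pseudocount of 5 FPKM, and Rpl3l in Tam against WT was gained at a pseudocount of 0.1 FPKM. In DoxTam against Tam, Rps16 and Rpl3l were lost with the same total and Rpl3l with the GC trend removed. At these depths rows under 1 FPKM rest on few fragments.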
